A study of Mus musculus with 12 samples.

Results

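The transition described here was that of 3T3-L1 cells carrying a control hairpin (shScram) from confluent preadipocytes to mitotic clonal expansion (MCE). It was measured in 4 RNA-seq libraries, 2 from preadipocytes (Pre) and 2 from the MCE stage, out of 12 libraries in the series. The genes described are the 13946, of 55487 in the table, with a TPM of at least 1 in 2 or more of these 4 libraries. The other 8 libraries were the later shScram stage (Diff) and the same 3 stages of cells with a hairpin against Fto (shFto), labelled as an Fto knockdown. They entered the fit to estimate the spread, and the shFto libraries served for 1 comparison at the end.

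3T3-L1 is a mouse fibroblast line that turns into fat cells when induced, and both lines were made by lentiviral delivery of a hairpin and puromycin selection, so every library comes from transduced, selected cells of a line in culture. Preadipocytes were grown to full confluence and held there for 2 days before induction. The induction medium carried 3-isobutyl-1-methylxanthine, dexamethasone and insulin for 3 days, and the calf serum of the growth medium was replaced by fetal bovine serum. The stage, the hormones, the serum and the time in culture therefore change together and cannot be told apart. The labels name 2 replicates in each group without saying that they were separate cultures, so a p-value measures only the spread between these libraries, which may be technical. TPM is a relative level that takes out transcript length and library total. More RNA per cell therefore cannot be told apart from more cells carrying that RNA, and how many reads stand behind a value is not known.

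Each component of the induction medium acts through a known route. Dexamethasone activates the glucocorticoid receptor, 3-isobutyl-1-methylxanthine blocks the phosphodiesterases that break down cyclic AMP, and insulin at a high dose signals through its own and the IGF1 receptor. In 3T3-L1 cells the arrested preadipocytes answer by re-entering the cell cycle for a limited number of divisions, while C/EBPβ and C/EBPδ rise first and are followed by C/EBPα and PPARγ, the pair that turns on the genes of the fat cell. The induced cells also lose the actin fibres and the fibrillar matrix of the fibroblast. The lists of genes below follow these roles, and they were chosen with earlier results of these data known.

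The 2 preadipocyte libraries disagreed. On the log2(TPM + 1) scale they correlated at r = 0.922 across genes, and 2961 genes (21.2%) lay more than 2-fold apart. The MCE pair correlated at r = 0.991 and had 176 such genes (1.26%), and the other 4 groups had r between 0.99 and 0.994. The difference of replicate 1 minus replicate 2 fell with the GC content of the gene (Spearman's rho = -0.746, a description across genes), so GC-rich genes were higher in replicate 2. Mitochondrially encoded genes took 14.5% of TPM in replicate 1 and 7.34% in replicate 2, against 6.22% and 5.72% at the MCE stage. A fit with a GC correction was run as well, and it is named below where it ended the call of a named gene and for the lists whose counts it moved most.

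A gene was called a DEG where the difference between the stage means exceeded 2-fold on log2(TPM + 1) with an adjusted p under 0.05, from limma fitted over all 12 libraries with Benjamini-Hochberg adjustment. The SE given with a difference rests on a spread pooled over all groups. The wide spread of the preadipocyte pair is thus averaged with that of closer pairs, and an SE or p-value can understate it. Where a library is left out below, its stage rests on a single library. Counts and calls from such fits then carry none of the disagreement within that pair. In all, 2892 genes were called, 1090 higher at the MCE stage (7.82% of the genes tested) and 1802 lower (12.9%). These shares are the background for the counts of each list below. Without a fold limit 6151 genes had an adjusted p under 0.05 in limma, so a gene that was not called is not shown to be unchanged. Because the preadipocyte libraries disagree, a called gene is said to have held where the MCE mean also lay more than 2-fold from each preadipocyte library on the same side. Of the called genes 1722 held, 579 higher (4.15%) and 1143 lower (8.2%), while 511 of the higher and 659 of the lower did not.

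The balance of directions depended on the scaling. The median difference over all genes was -0.17, and 37.7% of the called genes were higher at the MCE stage. With median-ratio scaling between libraries the median was 0.01 and the share 55.1% (1589 higher, 1297 lower), and with a GC correction 50.5% (1192 higher, 1169 lower). The share was 27.8% without preadipocyte replicate 1 and 49.7% without replicate 2. No statement is therefore made on whether more genes rose than fell, and the levels of named genes and lists are read against the all-gene median of -0.17.

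**Figure D1:**
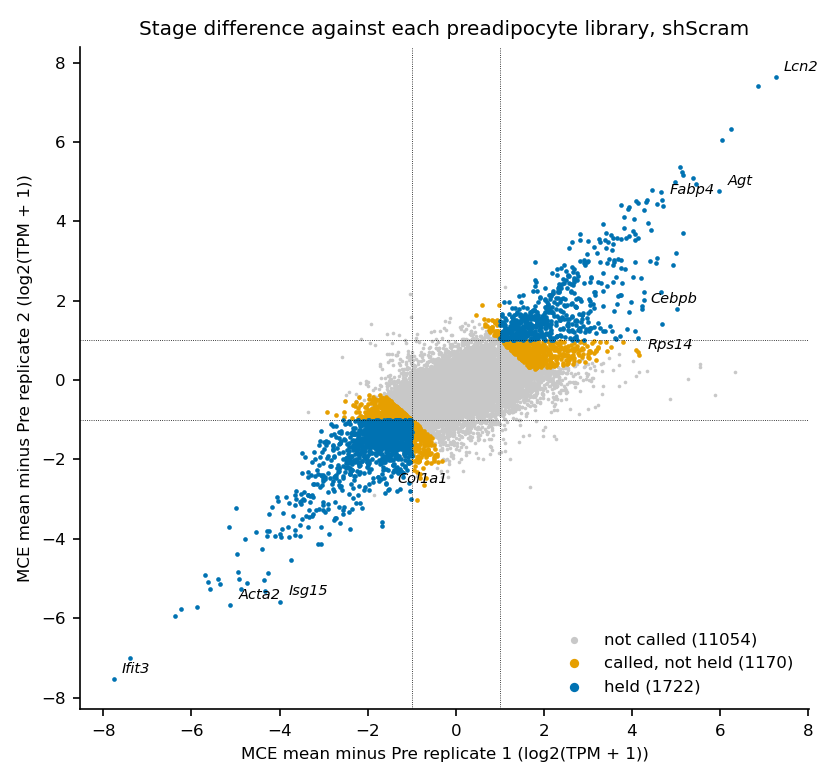
Each point is 1 of 13946 genes, with the MCE mean minus preadipocyte replicate 1 on the x axis and minus replicate 2 on the y axis, both on log2(TPM + 1), and dotted lines at 2-fold. The 1722 held genes (blue) lie beyond 2-fold on both axes, while the 1170 called genes that did not hold (orange) lie beyond it on only 1 axis. Rps14, a ribosomal protein gene singled out after its values were seen, lies far from the diagonal, with 219 and 2540 TPM in preadipocytes and 4065 and 3836 at the MCE stage.

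Among held genes with a mean of at least 5 TPM, the largest rise was that of Lcn2 (chr2:32384633-32388252, GRCm38), which encodes the secreted acute phase protein lipocalin 2 and stands in both the glucocorticoid and the cytokine list. Lcn2 stood at 3.86 and 2.76 TPM in preadipocyte replicates 1 and 2 and at 717 and 776 TPM at the MCE stage. Both MCE libraries were far above both preadipocyte libraries, a log2 difference of 7.45 ± 0.17 (SE, 2 libraries a stage, limma adjusted p = 1.7e-07). Agt (chr8:124556534-124569706), which encodes angiotensinogen and is expressed in fat and liver, went from 5.6 and 14.3 to 440.1 and 392 TPM, a log2 difference of 5.37 ± 0.31 (SE, limma adjusted p = 4.9e-06). In each of these genes the gap between the preadipocyte libraries was small beside the gap between the stages.

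The other 8 of the 10 highest genes encode mostly secreted proteins and keratins. Ear2, an eosinophil-associated ribonuclease, was at 0.444 and 0 TPM and then 161 and 176 TPM, and the related pseudogene Ear-ps2 went from 0.0588 and 0 to 90.7 and 69.6 TPM. Ear genes have near-identical copies, so reads may be split among them and the level of each is uncertain. Retnla, a secreted protein of the resistin family, was listed at 0 in both preadipocyte libraries and at 62.4 and 68.3 TPM at the MCE stage. The keratin genes Krt13 and Krt15, whose products form filaments in stratified epithelia, went from 4.72 and 6.06 to 256 and 224 TPM and from 6.91 and 6.35 to 248 and 311 TPM. Ramp3, which encodes a partner of the calcitonin receptor family, went from 0.491 and 0.246 to 44.4 and 56.8 TPM. Wfdc3 and Wfdc12, which encode small proteins of the whey acidic protein type, stood at 54.3 and 69.2 and at 28.8 and 41.8 TPM at the MCE stage, with 0.411 and 1.04 TPM in preadipocytes for the first and 0 in both for the second. All of these were separated without overlap between the stages. Exons of Ramp3 and Wfdc12 overlap an annotated antisense gene, and because the use of strand is not stated, their reads cannot be told apart from those of that gene.

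Markers of other cell types were checked because of these families. Of 11 macrophage markers 4 passed the filter, their summed level was 17.97 and 27.6 TPM in preadipocytes and 7.33 and 8.90 TPM at the MCE stage, Adgre1 was at 0 in all 4 libraries, and Ptprc and Itgam were at or under 0.0517 TPM. Of 8 epithelial markers only Krt19 passed, going from 0.872 and 0.325 to 8.29 and 6.93 TPM, and the defining markers Epcam and Krt18 were at 0 in all 4 libraries, with Cdh1 at or under 0.164 TPM. The 8 endothelial markers stayed under 1 TPM everywhere, 1 of 7 skeletal muscle markers and 2 of 9 bone and cartilage markers passed the filter, and of the latter Runx2, a bone transcription factor, fell from 15.8 and 17.6 to 5 and 8.05 TPM (log2 difference -1.27, and -0.97 without MCE replicate 1, under 2-fold). Genes that mark fibroblasts were high at both stages, with Vim at 3934 and 3544 and 3549 and 3291 TPM and Pdgfra at 138 and 102.4 and 194 and 166 TPM. Of 15 tested fibroblast and preadipocyte markers, 2 rose and held (Ly6a and Pi16) and 2 fell and held (Col1a1 and Col1a2), and Pdgfrb was called lower and did not hold. Dlk1, the preadipocyte surface protein Pref-1, stood at 627 and 1072 and then 1182 and 1106 TPM and was not called.

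Glucocorticoid targets had the highest median of the 3 lists that follow the induction medium. Of 26 tested members 19 rose and 17 of these held, 1 fell and held, and the median log2 difference was 2.00, against -0.17 over all genes. Without preadipocyte replicate 1 the count was 17 higher and 1 lower, and with the GC correction 18 and 0. Fkbp5, a co-chaperone of the receptor, went from 25.8 and 37.9 to 458 and 439 TPM, a log2 difference of 3.80 ± 0.16 (SE, 2 libraries a stage, limma adjusted p = 1.1e-06). Glul, glutamine synthetase, went from 16.2 and 12.7 to 370.5 and 379.9 TPM. Tsc22d3, the anti-inflammatory protein GILZ, went from 87 and 105 to 569 and 546 TPM. In these 3 genes both MCE values were far above both preadipocyte values.

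Several further members rose from a low base. Angptl4, an inhibitor of lipoprotein lipase, went from 4.46 and 7.41 to 66.8 and 62.8 TPM, and Hsd11b1, which regenerates active glucocorticoid, went from 0.696 and 0.45 to 11.9 and 16.4 TPM. Zbtb16, the zinc finger factor PLZF, went from 0.938 and 1.1 to 11.4 and 11.4 TPM. The phosphatase gene Dusp1 (log2 difference 2.28), the NF-κB inhibitor gene Nfkbia (1.66) and Pdk4, a kinase that limits pyruvate oxidation (1.49), also rose and held. Per1, a clock gene, was called higher and did not hold, since preadipocyte replicate 2 (27.6 TPM) lay within 2-fold of the MCE mean while replicate 1 (10.7 TPM) did not. Klf9, often used as a glucocorticoid target, was not called at 43.4 and 35.4 and 40 and 35.8 TPM, nor was the receptor gene Nr3c1 at 54.1 and 42.9 and 34.6 and 33.3 TPM. Anxa1, annexin A1, fell from 1089 and 849 to 401 and 380.2 TPM, but with the GC correction its log2 difference was -0.70, under 2-fold. The same correction put Per1 at 0.96, just under 2-fold.

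The cyclic AMP list moved in both directions. Of 23 tested members 9 rose (8 held) and 4 fell (all held), against 7.82% of all genes called higher and 12.9% called lower. The median log2 difference of 0.01 turned to -0.07 when mitochondrially encoded genes were left out of the TPM. Rgs2, a regulator of G protein signalling, went from 11.5 and 8.33 to 193 and 188 TPM, a log2 difference of 4.15 ± 0.14 (SE, limma adjusted p = 4.0e-07). The phosphodiesterase genes Pde4d and Pde4b, which degrade cyclic AMP, went from 6.14 and 5.7 to 46.4 and 44.1 TPM and from 7.35 and 5.2 to 42.4 and 43.6 TPM. Nr4a1, an orphan nuclear receptor induced by CREB, and Sik1, a kinase that restrains CREB coactivators, rose by log2 differences of 2.43 and 1.68. Each of these had both MCE values above both preadipocyte values.

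The members that fell included parts of the cyclic AMP machinery itself. Prkar2b, a regulatory subunit of protein kinase A, fell from 115 and 89.7 to 30.4 and 28.4 TPM, and Akap12, an anchor of that kinase, from 52.9 and 40.5 to 4.85 and 4.38 TPM. Ppargc1a, a coactivator of mitochondrial genes, fell from 11.2 and 5.37 to 1.82 and 1.18 TPM. Crem and Pde3b did not pass the test, at 8.25 and 6.56 and 4.56 and 5.61 TPM and at 1.88 and 1.31 and 1.76 and 1.36 TPM.

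Among genes of insulin and IGF signalling, 7 of 25 rose (6 held) and 4 fell (3 held), with a median log2 difference of 0.41. Over all genes 7.82% were called higher and 12.9% lower. The secreted IGF binding protein genes Igfbp5 and Igfbp4 went from 3.48 and 2.69 to 49.4 and 44.5 TPM and from 35.6 and 77 to 611 and 619.5 TPM. Irs1, the first substrate of the insulin receptor, fell from 18.4 and 18.1 to 4.63 and 4.75 TPM, while Irs2 went from 9.54 and 18.2 to 38.6 and 36.1 TPM and was called higher without holding against replicate 2. Grb14, an inhibitor of the receptor, and Pik3cb, a catalytic subunit of PI3 kinase, fell and held, the second with a log2 difference of -1.41. The receptor genes Insr (19.6 and 17.7 and 19 and 17.4 TPM) and Igf1r (12.6 and 16.1 and 22.5 and 21.7 TPM) were not called, although both MCE values of Igf1r lay above both preadipocyte values.

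**Figure D2:**
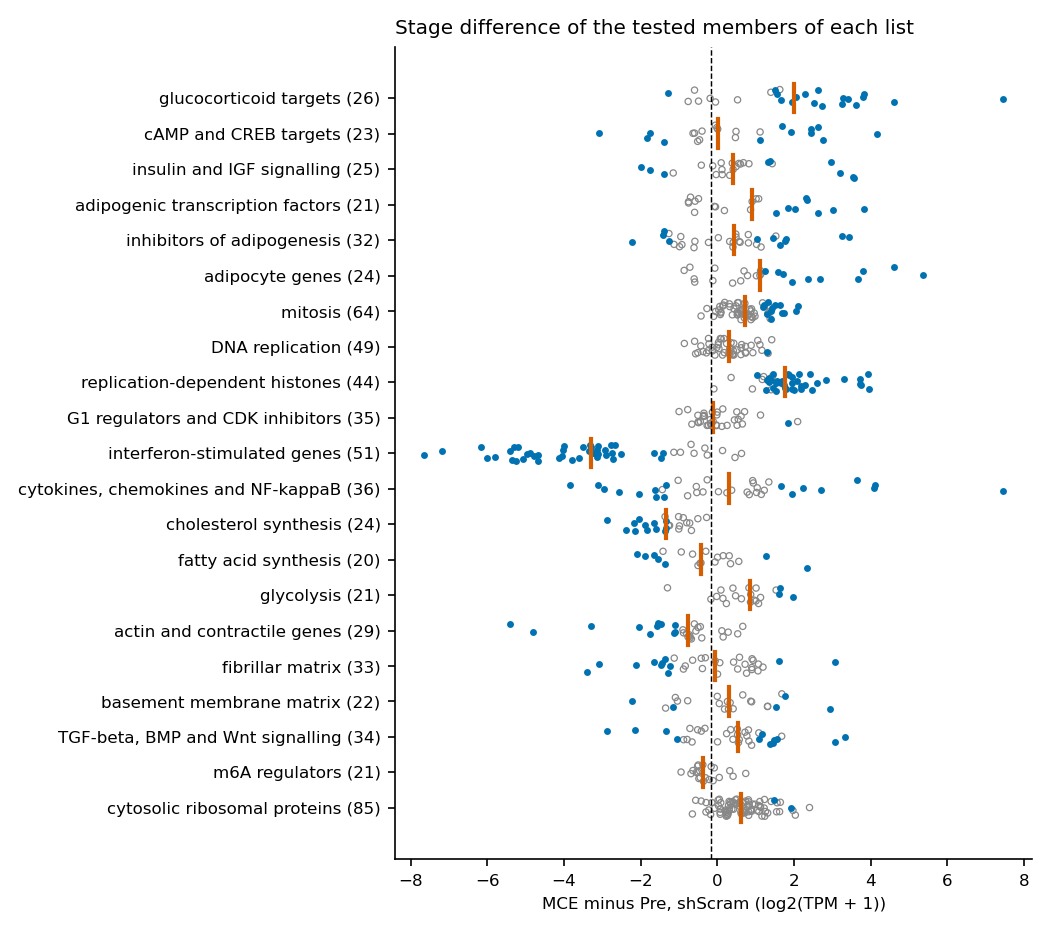
Each point is a tested member of the list named on the left, with the number tested in brackets, and the x axis is the MCE minus preadipocyte difference of stage means on log2(TPM + 1). Filled points held against both preadipocyte libraries, open points did not, the bar is the list's median and the dashed line the all-gene median of -0.17. Interferon-stimulated genes (median -3.30) lie furthest to the left, and glucocorticoid targets (2.00) and histone genes (1.76) furthest to the right.

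Adipogenic transcription factors rose in part. Of 21 tested members 10 rose (8 held) and 0 fell, with a median log2 difference of 0.90. The GC correction left 9 higher and 1 lower. Cebpb went from 35.9 and 199.6 to 676 and 701 TPM and Cebpd from 5.97 and 18.5 to 166 and 162 TPM, with log2 differences of 3.00 ± 0.59 (SE, limma adjusted p = 0.0042) and 3.82 ± 0.37 (SE, limma adjusted p = 8.4e-05). These 2 genes held, but the preadipocyte libraries lay wide apart, with replicate 2 the higher in both. Cebpa stood at 0.327 and 2.82 and then 7.13 and 6.88 TPM, and Pparg at 10.3 and 9.06 and then 32 and 27.9 TPM, a log2 difference of 1.54 ± 0.14 (SE, limma adjusted p = 6.4e-05). Klf5, which acts between the early and late factors, went from 5.83 and 5.92 to 32.8 and 33.8 TPM, with preadipocyte replicates close together. Srebf1, a regulator of lipid synthesis, went from 6.41 and 25 to 73.2 and 65.2 TPM, and Rxra, the partner of PPARγ, also held (log2 difference 2.02). The early factor Klf4 (19.9 and 50.3 and 19.2 and 19.1 TPM), Ebf1 (20.7 and 13.8 and 18.9 and 13.4 TPM) and the liver X receptor gene Nr1h3 (1.98 and 3.15 and 6.9 and 4.47 TPM) were not called. Without preadipocyte replicate 1, which leaves a single preadipocyte library, the log2 difference of Klf4 was -1.35.

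Genes that restrain adipogenesis moved both ways. Of 32 tested members 10 rose (7 held) and 6 fell (4 held), with a median log2 difference of 0.44. Over all genes 7.82% were called higher and 12.9% lower, and 4.15% and 8.2% held. Id1 and Id3, which block the binding of helix-loop-helix factors, went from 11.5 and 51.8 to 247 and 239 TPM and from 7.72 and 46.7 to 229 and 213 TPM, again with preadipocyte replicate 2 well above replicate 1. Id2, the Notch target Hes1 and the vitamin D receptor gene Vdr rose by log2 differences of 1.44, 1.64 and 1.79. Runx1t1, a repressor partner listed here among genes that hold back adipogenesis, fell from 22.9 and 15.7 to 3.78 and 2.85 TPM, a log2 difference of -2.22 ± 0.20 (SE, limma adjusted p = 6.7e-05). The paper cites work in which FTO could alter the splicing of this factor, and a gene level does not show which splice form fell. Ddit3, the stress factor CHOP that blocks C/EBPβ, fell from 239 and 289 to 96.2 and 100.1 TPM. Gata3 was called lower without holding, and Gata2 (2.81 and 6.76 and 2.51 and 2.73 TPM), Klf2 (2.64 and 9.15 and 4.75 and 3.66 TPM), Wnt5a (4.31 and 5.68 and 9.86 and 9.04 TPM) and Sox9 (36.2 and 53.1 and 54.7 and 55.2 TPM) were not called. For Wnt5a and Sox9 both MCE values lay above both preadipocyte values. Without preadipocyte replicate 1, which leaves a single preadipocyte library, the log2 difference of Gata2 was -1.10.

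Genes of the fat cell itself had begun to appear. Of 24 tested members 14 rose (10 held) and 0 fell, with a median log2 difference of 1.12, and without preadipocyte replicate 1 the counts were 10 higher and 2 lower. The GC correction gave 12 higher and 1 lower. Fabp4, the fatty acid carrier of adipocytes, went from 7.66 and 8.6 to 211 and 231 TPM, a log2 difference of 4.60 ± 0.16 (SE, 2 libraries a stage, limma adjusted p = 4.0e-07). Cd36, a fatty acid transporter, went from 0.034 and 0.176 to 13 and 12.8 TPM, and Cidec, a protein that enlarges lipid droplets, from 0 and 0.23 to 15.3 and 13.4 TPM. The droplet coat gene Plin1 stood at 0 and 0.0498 and then 4.02 and 4.53 TPM, and the lipase genes Lipe and Pnpla2 at 3.74 and 7.83 and then 43 and 38 TPM and at 14.9 and 23.8 and then 60.5 and 56.4 TPM. In all of these both MCE values were above both preadipocyte values.

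Other adipocyte genes were still low or were not called. Adipoq, which encodes adiponectin, was under the filter, with 0 in both preadipocyte libraries and 0.817 and 0.791 TPM at the MCE stage, against 77.2 and 72.4 TPM in the later Diff libraries of the same line, the first of which has a treatment entry that names the Fto knockdown against its title. The secreted factors Cfd and Retn reached 3.74 and 3.16 TPM and 2.13 and 2.88 TPM, and Lep was at 0 in all 4 libraries. Plin2 (146 and 180.4 and 148 and 151 TPM), the droplet protein of many cell types, Lpl (174 and 112 and 92.4 and 77.2 TPM), lipoprotein lipase, and Apoe (2.69 and 6.11 and 1.64 and 3.3 TPM) were not called. Both MCE values of Lpl were below both preadipocyte values, and its log2 difference of -0.72 passed the limma threshold (adjusted p = 0.017) but not the 2-fold limit. The value of Apoe without preadipocyte replicate 1 was -1.08 on the log2 scale, with a single preadipocyte library left.

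**Figure D3:**
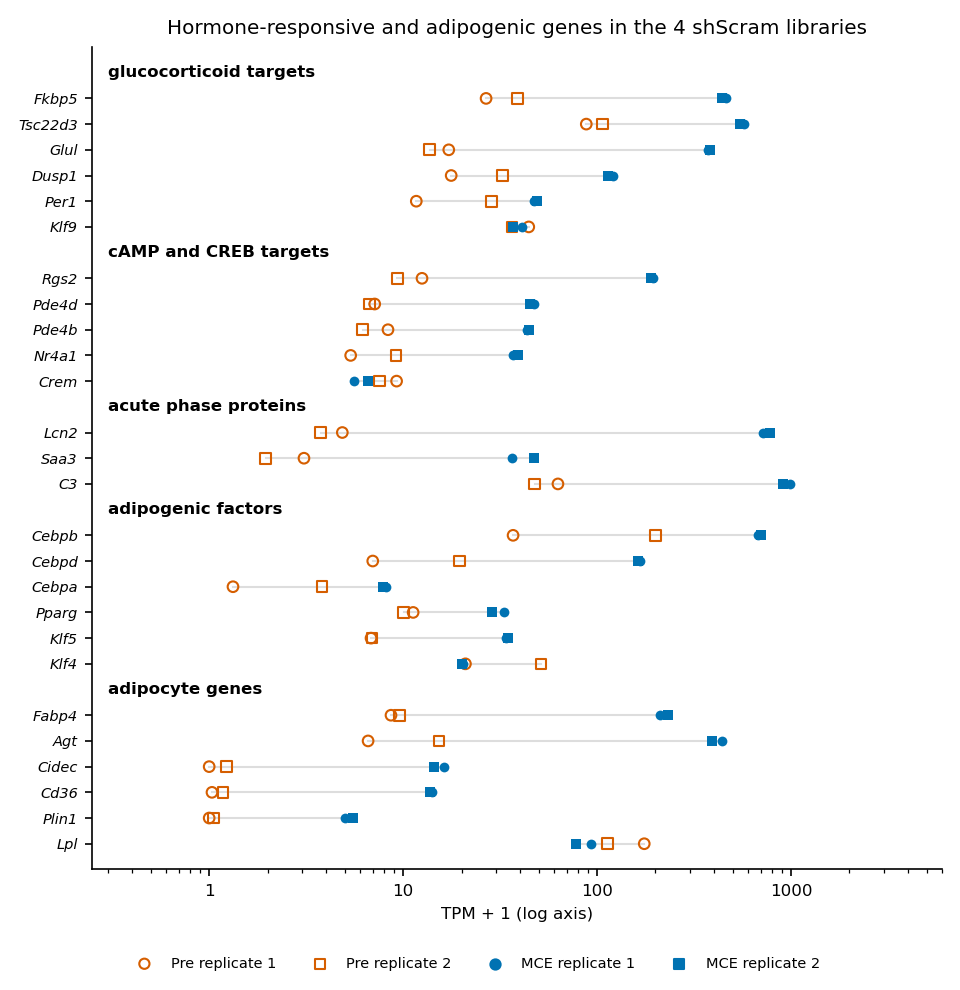
Each row is a gene and each symbol a library, with TPM + 1 on a log axis, preadipocytes open and the MCE stage filled, replicate 1 as a circle and replicate 2 as a square. For Lcn2, Fabp4, Glul and Rgs2 the stages are far apart and the replicates close, for Cebpb and Cebpd the preadipocyte libraries are themselves far apart, and for Klf9, Crem and Lpl the stages were not called different.

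Genes of fatty acid synthesis fell in part. Of 20 tested members 2 rose and held (Srebf1 and Thrsp), a share near the 7.82% of all genes called higher. Another 6 fell (5 held), against 12.9% of all genes called lower, and the median log2 difference was -0.44. Fasn, fatty acid synthase, stood at 61.9 and 196 and then 175 and 151 TPM and was not called, nor were Acly (179 and 341 and 177 and 169.5 TPM), Acaca (51.4 and 68.8 and 32.2 and 28.8 TPM), Scd1 (187 and 210.1 and 131 and 121 TPM) and Scd2 (332 and 632 and 350 and 319 TPM). For Acaca and Scd1 both MCE values lay below both preadipocyte values. The log2 difference of Acaca, -0.94, passed the limma threshold (adjusted p = 0.0013) but not the 2-fold limit. The log2 difference of Fasn was 1.38 without preadipocyte replicate 2 and -0.26 without replicate 1, each with a single preadipocyte library left. Insig1, a sterol sensor of the endoplasmic reticulum, fell from 96.4 and 155 to 28.6 and 26.6 TPM, and the desaturase gene Fads2 from 178 and 228 to 54.5 and 53.3 TPM. Me1, malic enzyme, and Elovl6, an elongase, fell, with log2 differences of -1.66 and -1.37.

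Most genes of cholesterol synthesis were lower at the MCE stage. All 24 tested members had a negative log2 difference between the stage means, the smallest -0.28. By the call 15 fell and 12 of these held, and the median was -1.34. The counts lower were 21 without preadipocyte replicate 1, 12 without replicate 2, 17 with the GC correction and 14 with median-ratio scaling. Msmo1, the methylsterol oxidase, fell from 756 and 577 to 93.3 and 84.5 TPM, a log2 difference of -2.88 ± 0.16 (SE, 2 libraries a stage, limma adjusted p = 3.3e-06). Hmgcs1, the enzyme that makes HMG-CoA, fell from 448 and 369 to 104 and 91.2 TPM. Fdps, which makes farnesyl pyrophosphate, fell from 695 and 1086 to 158 and 175 TPM. In all of these both MCE values were below both preadipocyte values.

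Sc5d, Sqle, Idi1 and Cyp51, which act at later and earlier steps of the same pathway, fell and held, with log2 differences of -2.18, -1.67, -1.84 and -1.35, and the value of Cyp51 with the GC correction was -0.98, just under 2-fold. Srebf2, the factor that drives the pathway, was not called at 73.8 and 187 and 95 and 97.9 TPM, with both MCE values above preadipocyte replicate 1 and below replicate 2.

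The largest falls belonged to interferon-stimulated genes (ISGs), which encode the antiviral machinery that type I interferon switches on through STAT2 and IRF9. Of the 10 lowest named genes, 9 are ISGs. Of 51 tested members of the ISG list 42 fell, all 42 held, and 0 rose, with a median log2 difference of -3.30. The count was 45 without preadipocyte replicate 1 and 43 with the GC correction, and 39 members were called when only the 4 libraries entered the fit. At the same thresholds 12.9% of all tested genes were called lower and 8.2% held.

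The promoters of a few of these genes are shown because members of the list moved together. The sequences are from RefSeq (GRCm38.p6), run 5′ to 3′ on the strand of the gene, and end just before the RefSeq start of transcription or, for Ifit1 and Gbp3, before a GENCODE start that lies further upstream. Capitals mark matches to the interferon-stimulated response element, searched on both strands as GAAA, any 2 bases and GAAA again, so overlapping matches are counted separately. 
Ifit3 (chr19:34583369-34583528, plus strand): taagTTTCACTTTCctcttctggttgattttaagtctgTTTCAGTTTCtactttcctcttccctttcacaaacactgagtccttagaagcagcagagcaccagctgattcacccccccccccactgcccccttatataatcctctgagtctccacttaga
Ifit1 (chr19:34640729-34640870, plus strand): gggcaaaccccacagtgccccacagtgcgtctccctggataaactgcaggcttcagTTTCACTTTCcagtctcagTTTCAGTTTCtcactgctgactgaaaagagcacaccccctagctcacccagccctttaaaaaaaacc
Gbp3 (chr3:142559884-142560025, plus strand): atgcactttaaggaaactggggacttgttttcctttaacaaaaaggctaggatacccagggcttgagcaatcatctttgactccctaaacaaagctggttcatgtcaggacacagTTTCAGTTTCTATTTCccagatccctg
Isg15 (chr4:156200819-156200978, minus strand): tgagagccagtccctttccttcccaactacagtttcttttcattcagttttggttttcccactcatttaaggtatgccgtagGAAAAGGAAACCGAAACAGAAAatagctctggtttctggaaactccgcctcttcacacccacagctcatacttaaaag
In these stretches Ifit3, Ifit1 and Gbp3 have 2 matches each and Isg15 has 3. Promoter windows of 300 bases were found for 38 of the tested members, 44 windows in all, and 18 of these windows (40.9%) held the element, as did 18 of 35 windows of held members (51.4%). The element was in 3.44% of all 32851 windows. A match is a description of the letters and does not show that a factor bound there.

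Effectors of this response made up most of the 10 lowest genes. Ifit3 (chr19:34583531-34588731), which binds viral RNA with its relatives, was at 587 and 498 TPM in preadipocytes and at 1.68 and 1.72 TPM at the MCE stage. Both preadipocyte libraries were high, both MCE libraries close to the filter, and the log2 difference was -7.65 ± 0.26 (SE, 2 libraries a stage, limma adjusted p = 4.0e-07). Ifit1 went from 330.3 and 239 to 3.39 and 3.37 TPM and the near-identical copy of Ifit3, Ifit3b, from 225 and 171 to 0.241 and 0.463 TPM, so the split of reads between these copies is uncertain. Oasl2, of the oligoadenylate synthase family, fell from 387 and 287 to 3.78 and 3.54 TPM, and the dynamin-like Mx2 from 128 and 116 to 1.36 and 1.06 TPM. Rtp4, Phf11d, Ifi44 and the guanylate-binding protein gene Gbp3 fell, with log2 differences of -5.41, -5.35, -5.31 and -5.24. Rtp4 shares exonic sequence with another annotated gene on the same strand, so its level is uncertain. Isg15, a ubiquitin-like modifier, went from 273 and 824 to 15.4 and 17.2 TPM, with preadipocyte replicate 2 well above replicate 1.

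The regulators of the pathway fell with its effectors. Stat2 went from 214 and 254 to 17.1 and 15 TPM and Irf9 from 82.3 and 88.7 to 7.83 and 8.71 TPM. Irf7, the factor that amplifies interferon production, went from 58.9 and 94.1 to 1.82 and 2.02 TPM, a log2 difference of -4.69 ± 0.20 (SE, limma adjusted p = 9.4e-07). The sensor gene Tlr3, which detects double-stranded RNA, fell from 45.5 and 34.4 to 4.49 and 2.98 TPM, and the interferon-induced chemokine gene Cxcl10 from 24.6 and 21.2 to 0.651 and 0.655 TPM. B2m, the light chain of MHC class I, fell from 4459 and 2678 to 1261 and 1303 TPM (log2 difference -1.43, and -0.75 with the GC correction, which ends the call), whereas the class I heavy chain gene H2-K1 was not called at 538 and 596 and 460.5 and 482 TPM. Among cytokine, chemokine and NF-κB genes 13 of 36 rose (8 held) and 11 fell (9 held), with a median log2 difference of 0.31. The complement gene C3 went from 61.8 and 46.7 to 984 and 903 TPM and the acute phase gene Saa3 from 2.08 and 0.952 to 35.5 and 46.4 TPM, while the chemokine genes Ccl8, Cxcl5, Ccl7 and Ccl2 fell, with log2 differences of -2.97, -2.04, -1.63 and -1.33. The GC correction put Ccl2 at -0.77, under 2-fold. The acute phase genes Orm1 (1.05 and 0.932 to 55.1 and 46.6 TPM), Hp (0 and 0.254 to 22.1 and 28.6 TPM) and Lbp (0.458 and 0.6 to 33.2 and 34.3 TPM) also held, and were singled out after their values were seen.

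Genes of the actin cytoskeleton and contraction fell or were not called. Of 29 tested members 11 fell, all 11 held, and 0 rose, with a median log2 difference of -0.77. Acta2 (chr19:34241090-34255590), smooth muscle actin, went from 307 and 452 to 8.93 and 6.9 TPM, a log2 difference of -5.40 ± 0.21 (SE, 2 libraries a stage, limma adjusted p = 5.5e-07). Myl9, a myosin light chain, went from 23.8 and 47.9 to 0 and 0.525 TPM, and Tpm1, tropomyosin, from 689 and 717 to 169 and 172 TPM. Ankrd1, a target of mechanical signalling through YAP, fell from 13 and 12.3 to 0.296 and 0.487 TPM, and Tagln, Ccn1 and Ccn2 fell, with log2 differences of -1.76, -1.58 and -1.10, the last at -0.96 without MCE replicate 2. In all of these both MCE values lay below both preadipocyte values.

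Transcripts of some matrix genes rose and those of others fell. The counts are to be read against 7.82% of all genes called higher and 12.9% called lower. Of 33 fibrillar matrix genes 3 rose (2 held) and 10 fell (9 held), and the median of -0.06 changed sign with median-ratio scaling (0.15). The counts were 8 higher and 9 lower with that scaling and 6 and 7 with the GC correction, so no balance of directions is read from them. Thbs1, thrombospondin 1, fell from 217 and 235 to 21.4 and 19.7 TPM, a log2 difference of -3.39 ± 0.13 (SE, limma adjusted p = 5.2e-07), and Col8a1 from 24.6 and 27.3 to 2.22 and 2.13 TPM. The type I collagen genes Col1a1 and Col1a2 fell from 872 and 2066 to 321 and 294 TPM and from 2311 and 4129 to 1206 and 1046 TPM, with preadipocyte replicate 2 well above replicate 1 in both. Tnc, tenascin C, and Sparc fell, with log2 differences of -1.65 and -1.25. Vcan, the proteoglycan versican, rose from 177 and 99.2 to 1254 and 991 TPM, a log2 difference of 3.06 ± 0.25 (SE, limma adjusted p = 3.6e-05), and the protease gene Adamts2 rose as well (1.60). Fn1 (1732 and 1765 and 2767 and 2455 TPM), Col3a1 (779.9 and 1272 and 859 and 747 TPM), Lox (969 and 689 and 517 and 377 TPM) and Dcn (184 and 65.3 and 175 and 144 TPM) were not called. For Fn1 both MCE values lay above both preadipocyte values, and for Lox below. Without preadipocyte replicate 1, which leaves a single preadipocyte library, the log2 difference of Dcn was 1.27. The count of fibrillar matrix genes called higher was 5 without replicate 1 and 9 without replicate 2.

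Of 22 basement membrane and integrin genes 6 rose (3 held) and 5 fell (2 held), with a median log2 difference of 0.31. Col18a1 went from 17.9 and 56.6 to 254 and 249 TPM, Col6a1 from 918 and 1088 to 2898 and 2852 TPM and Col6a2 from 494 and 709.7 to 2043 and 2001 TPM, and all 3 held. The type IV collagen genes Col4a1 (187 and 505 and 1034 and 942 TPM) and Col4a2 (133 and 359.6 and 555 and 534 TPM) were called higher and did not hold, since replicate 2 was within 2-fold of the MCE mean, and the GC correction put Col4a2 at 0.74. Col4a5 and the integrin gene Itgav fell, with log2 differences of -2.23 and -1.16, and Itgav was at -0.96 with median-ratio scaling, just under 2-fold. Among TGF-β, BMP and Wnt genes 10 of 34 rose (8 held) and 4 fell (all held), with a median of 0.54, and the GC correction left 2 lower. Over all genes 7.82% were called higher and 12.9% lower. The Wnt coreceptor gene Lrp5 and the ligand gene Wnt4 went from 19.2 and 40.9 to 298 and 284 TPM and from 1.1 and 0.841 to 15.8 and 15.4 TPM, and the secreted Wnt modulator gene Sfrp2 fell from 22.7 and 36.4 to 2.76 and 3.36 TPM.

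Genes of mitosis rose in part. Of 64 mitosis genes 19 rose (13 held) and 0 fell, 60 had a positive log2 difference, and the median was 0.71. The count higher was 21 without preadipocyte replicate 1, 23 without replicate 2, 27 with median-ratio scaling and 39 with the GC correction. Top2a, the topoisomerase that untangles chromosomes, went from 109.8 and 82.2 to 413 and 379.7 TPM, a log2 difference of 2.05 ± 0.15 (SE, 2 libraries a stage, limma adjusted p = 1.5e-05). Cdk1, the kinase that drives entry into mitosis, went from 17.1 and 40.3 to 86.5 and 87.7 TPM, and its partner Ccnb1, cyclin B1, from 54.6 and 53.3 to 126 and 123 TPM. The centromere gene Cenpm, the ubiquitin-conjugating gene Ube2c, the kinase gene Aurkb and the cyclin gene Ccnb2 rose by log2 differences of 2.09, 1.75, 1.44 and 1.39 and held. The kinase gene Plk1 and the checkpoint gene Cdc20 were called higher without holding against replicate 2. The proliferation marker Mki67 (41.5 and 22.4 and 45.5 and 37.9 TPM), the cyclin gene Ccna2 (66.7 and 52.6 and 98.1 and 85 TPM) and the mitotic transcription factor Foxm1 (16.7 and 27.5 and 31.6 and 31 TPM) were not called. The log2 difference of Ccna2, 0.62, passed the limma threshold (adjusted p = 0.0085) but not the 2-fold limit. With the GC correction it was 1.0046, just past that limit.

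The promoters of Top2a and Cdk1 are shown because mitotic genes are known to share the CCAAT box, bound by NF-Y, and the cell cycle genes homology region (CHR). Capitals mark matches to CCAAT and to TTTGAA on either strand. 
Top2a (chr11:99024190-99024309, minus strand): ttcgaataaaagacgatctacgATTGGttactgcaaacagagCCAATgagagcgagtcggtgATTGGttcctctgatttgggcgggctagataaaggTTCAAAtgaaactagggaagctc
Cdk1 (chr10:69352939-69353032, minus strand): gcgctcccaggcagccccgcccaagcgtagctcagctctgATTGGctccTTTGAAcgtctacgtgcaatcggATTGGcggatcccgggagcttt
Both stretches are from RefSeq (GRCm38.p6), the first ending at its RefSeq start and the second at a GENCODE start upstream of the RefSeq one. Top2a has 3 CCAAT boxes and 1 CHR, Cdk1 2 and 1. Among 57 windows of the tested mitosis genes 73.7% held a CCAAT box and 70.2% a CHR, against 37.4% and 17.9% of all windows. All windows include those of genes that were not tested here. The CCAAT box was not particular to mitosis genes. It was in 16 of 20 windows of cholesterol synthesis genes, a list that fell, and in 27 of 48 of DNA replication genes. In the cyclic AMP list it was in 8 of 30. The CHR was in 1 of the 20 and 8 of the 48 windows. The letters match in most of the list, including members that were not called.

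Of 49 tested genes of DNA replication 5 rose, 1 of these held and 0 fell, a share higher that is near the 7.82% of all genes. The median was 0.31, and 10 were called higher without preadipocyte replicate 2 and 1 without replicate 1. Rrm2, a subunit of ribonucleotide reductase, went from 19.6 and 26.2 to 56.4 and 57.4 TPM and held. The helicase genes Mcm2 (53.2 and 81.1 and 70.8 and 78.5 TPM), Mcm3 (35.2 and 61 and 66.9 and 66 TPM), Mcm5 (23.8 and 40 and 55.7 and 63.6 TPM) and Mcm6 (65.9 and 60.9 and 56.7 and 59.3 TPM), and the clamp gene Pcna (139 and 135 and 180.4 and 160 TPM), were not called. For Mcm3, Mcm5 and Pcna both MCE values lay above both preadipocyte values, and for Mcm6 below. In 48 windows of these genes, the E2F site letters TTTGGCGC were found in 12.5% and TTTCCCGC in 14.6%, against 0.514% and 1.07% of all windows. Not every list was richer in its motif. The glucocorticoid receptor site letters TGTTCT were in 20.0% of 35 windows of glucocorticoid targets, against 19.0% of all windows. The CRE letters TGACGTCA were in 3 of 30 windows of the cyclic AMP list (10.0%), against 1.79%. The 2 forms searched as SRE were in 0 of 20 windows of cholesterol synthesis genes, against 0.0913% and 0.234%, too rare to compare.

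Replication-dependent histone genes rose nearly as a whole. Of 44 tested members 40 rose, 37 held and 0 fell, with a median log2 difference of 1.76, and the count was 38 without preadipocyte replicate 1 and 30 with the GC correction. Their summed level over all 65 members in the table was 76.1 and 183 TPM in preadipocytes and 781 and 681 TPM at the MCE stage. H4c12 went from 0 and 3.1 to 30.8 and 28.7 TPM, H4c8 from 0 and 2.04 to 21.6 and 23.2 TPM and H2ac18 from 0.228 and 0 to 28.4 and 9.11 TPM. In H2ac18 the MCE libraries themselves lay apart, and its call was lost without MCE replicate 1 (limma adjusted p = 0.067). These genes have near-identical copies, so the level of each single gene is uncertain.

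Of 35 regulators of G1 and inhibitors of cyclin-dependent kinases, 3 rose (1 held) and 1 fell without holding. The share higher is near the 7.82% of all genes, and 12.9% of all genes were called lower. The median of -0.11 changed sign with the GC correction (0.19) and with median-ratio scaling (0.09). Cdkn2d, a kinase inhibitor, rose and held (3.56 and 13.1 to 26.5 and 28.6 TPM). Ccnd3, cyclin D3, was at 21.3 and 144 TPM in preadipocytes and 240.3 and 242 TPM at the MCE stage and did not hold, because only preadipocyte replicate 1 lay more than 2-fold below the MCE mean. Ccnd2 was called lower at the edge of the threshold (199 and 218 and 106 and 101 TPM) and was under 2-fold with median-ratio scaling (-0.80) and without preadipocyte replicate 2 (-0.94) or MCE replicate 2 (-0.97). Ccnd1 (169 and 239 and 185 and 168 TPM), Cdkn1a (115 and 202 and 133 and 139 TPM), Cdkn1b (104 and 79.6 and 81 and 78.3 TPM) and Myc (35.4 and 53.2 and 61.3 and 63.6 TPM) were not called.

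**Figure D4:**
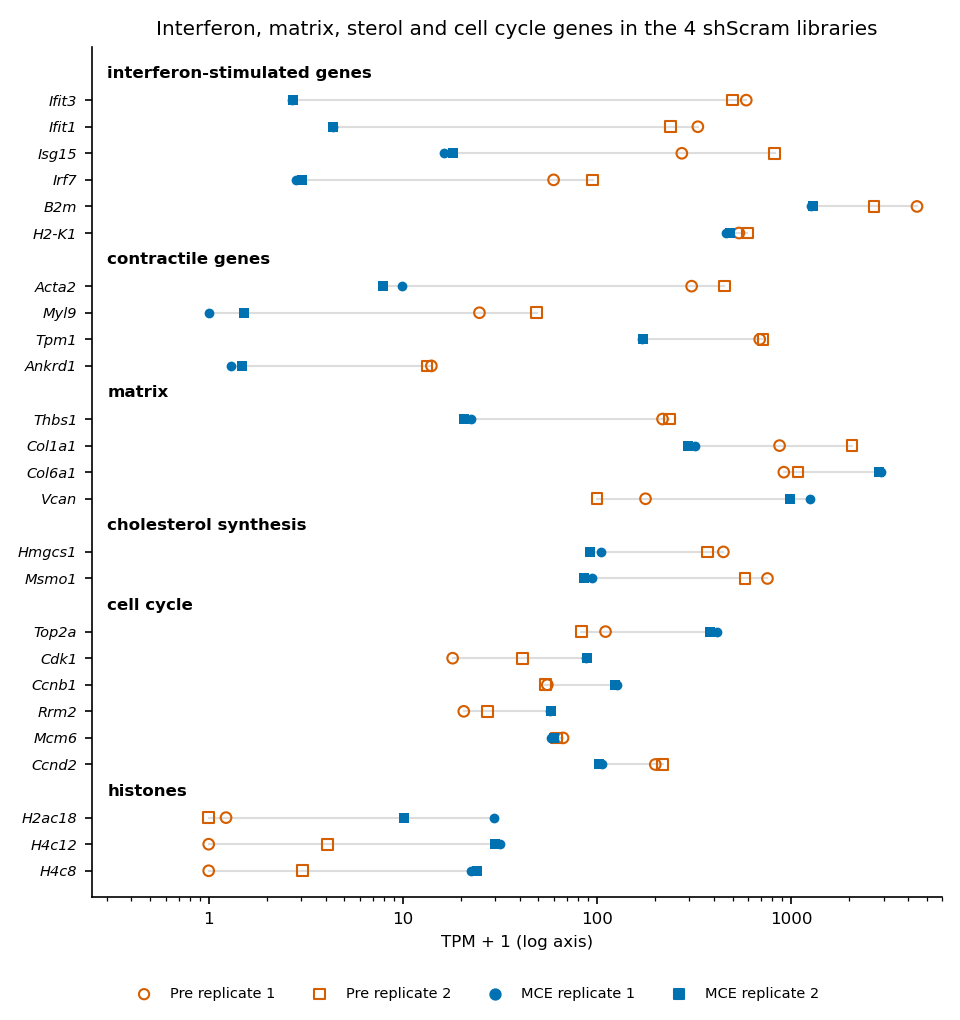
Rows, symbols and axis are as in the plot of hormone-responsive and adipogenic genes, with preadipocytes open and the MCE stage filled on a log axis of TPM + 1. Interferon-stimulated, contractile and sterol genes lie lower at the MCE stage, H2-K1 only slightly and without a call. Vcan, Col6a1, Top2a and the histone genes lie higher, and Mcm6 was not called.

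Where a list is given above with 0 members called in one direction by limma, 0 members passed in that direction at an unadjusted p under 0.05 with the same 2-fold limit. The remaining lists showed smaller or mixed changes, to be read against 7.82% of all genes called higher and 12.9% called lower. Of 21 entries of the glycolysis list 7 rose (3 held) and 1 fell without holding, with a median of 0.86 over all members and 0.42 against replicate 2 alone. The list includes genes that are not enzymes of the pathway, among them Bnip3 and Slc16a1, and it enters Aldoa under separate identifiers. Ldha, lactate dehydrogenase A, went from 412 and 906 to 1831 and 1971 TPM, Pfkl, a phosphofructokinase, from 34.6 and 80.3 to 194 and 223 TPM and Bnip3 from 59.7 and 60.6 to 179.8 and 188 TPM. Of 28 genes of mitochondrial oxidation 4 rose (2 held) and 1 fell and held, and Ucp2 went from 8.42 and 26.4 to 68.2 and 70.2 TPM. Of 34 genes of the unfolded protein and amino acid response 0 rose and 7 fell (5 held), among them the cystine transporter gene Slc7a11, which fell from 17.6 and 19.7 to 5.1 and 4.37 TPM. Of 18 clock genes 3 rose (1 held) and 2 fell (1 held), with Nfil3 from 16.7 and 22.7 to 54.5 and 61.5 TPM and Per3 from 5.72 and 6.47 to 1.54 and 1.46 TPM. Of 19 immediate early genes 5 rose (2 held) and 2 fell and held, and Jun went from 15.9 and 40.9 to 145 and 133 TPM and Egr1 from 12.1 and 23 to 4.35 and 4.14 TPM.

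These small counts changed with the preadipocyte libraries and with the scaling. Without replicate 1 and without replicate 2, the members called higher numbered 3 and 11 in glycolysis and 2 and 9 among immediate early genes. The members called lower in the unfolded protein and amino acid response numbered 11 and 7, and those of the clock 4 and 2. In the basement membrane list 3 and 8 members were called higher. With median-ratio scaling 12 members of the glycolysis list were called higher and 3 genes of the unfolded protein and amino acid response lower. With mitochondrially encoded genes left out of the TPM, 4 members of the glycolysis list were called higher. The GC correction left 1 clock gene higher.

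Of 21 regulators of m6A, the RNA mark that FTO removes, 0 were called in either direction, and their median log2 difference of -0.38 changed sign with the GC correction (0.06). At an unadjusted limma p under 0.05, 1 member was higher and 10 were lower, 0 of them by more than 2-fold. Fto itself was at 52.7 and 58.3 and 59.1 and 55.7 TPM and was not called. The writer genes Mettl3 (22.2 and 22.8 and 18.8 and 19.8 TPM) and Mettl14 (30.1 and 24 and 11.9 and 15.2 TPM) and the eraser gene Alkbh5 (37.2 and 56.9 and 63.1 and 59.9 TPM) were not called either. Both MCE values of Mettl14 lay below both preadipocyte values, and its log2 difference of -0.95, the lowest of the list, was just under 2-fold.

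For 2 lists the counts changed widely with single libraries and with the scaling. Of 85 cytosolic ribosomal protein genes 21 were called higher and only Rps18 and Rps29 held, both of which lost the call without MCE replicate 2 (limma adjusted p = 0.06 and 0.074). The count of the list was 3 without preadipocyte replicate 1, 33 without preadipocyte replicate 2, 12 without MCE replicate 1 and 3 without MCE replicate 2. It was 26 with the GC correction, 16 with that correction and no preadipocyte replicate 1, 32 with median-ratio scaling and 11 with quantile normalization. Many of these genes have processed copies in the genome, so their levels are uncertain. Of 13 mitochondrially encoded genes 4 were called lower and 0 held, 0 were called without preadipocyte replicate 1 or with the GC correction and 8 without replicate 2, and the median of -0.69 became 0.11 with the GC correction. Against replicate 1 alone that median was -1.14, and against replicate 2 alone -0.19. The part of RNA quality or library preparation in these values was not tested.

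The same stage difference in shFto cells shares no library with the control line and shows how far the response recurred. Fto stood at 5.51 and 5.55 TPM in preadipocytes of the shFto line and at 6.32 and 6.03 TPM after its induction, against 52.7 and 58.3 and 59.1 and 55.7 TPM in the control line. Of the held genes 314 of 579 higher (54.2%) and 684 of 1143 lower (59.8%) also differed more than 2-fold in the same direction in shFto cells. Of the called genes that did not hold, 88 of 511 higher (17.2%) and 173 of 659 lower (26.3%) did so. Holding selects larger and steadier differences, so a higher share among held genes is favoured by that choice. The share over all tested genes was not counted, so these shares have no background beside them. The sign was opposite in shFto cells for 66 of the held higher and 32 of the held lower genes.

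The stage difference itself was tested between the lines by an interaction contrast, and 710 of 13946 genes (5.09%) passed an adjusted p under 0.05 in limma. Of the 1722 held genes 328 passed. Among held higher genes 162 had the smaller rise in shFto cells and 29 the larger. Among held lower genes 126 had the smaller fall in shFto cells and 11 the larger. Because the genes were selected for a large difference in the control line, a smaller value in the other line is favoured by that choice, and no direction is read from these counts. The count over all genes rested heavily on single libraries: it was 2220 without shScram preadipocyte replicate 1, 8089 without replicate 2, 253 and 264 without MCE replicate 1 and 2, and 185 when only the 8 libraries of these stages entered the fit.

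**Figure D5:**
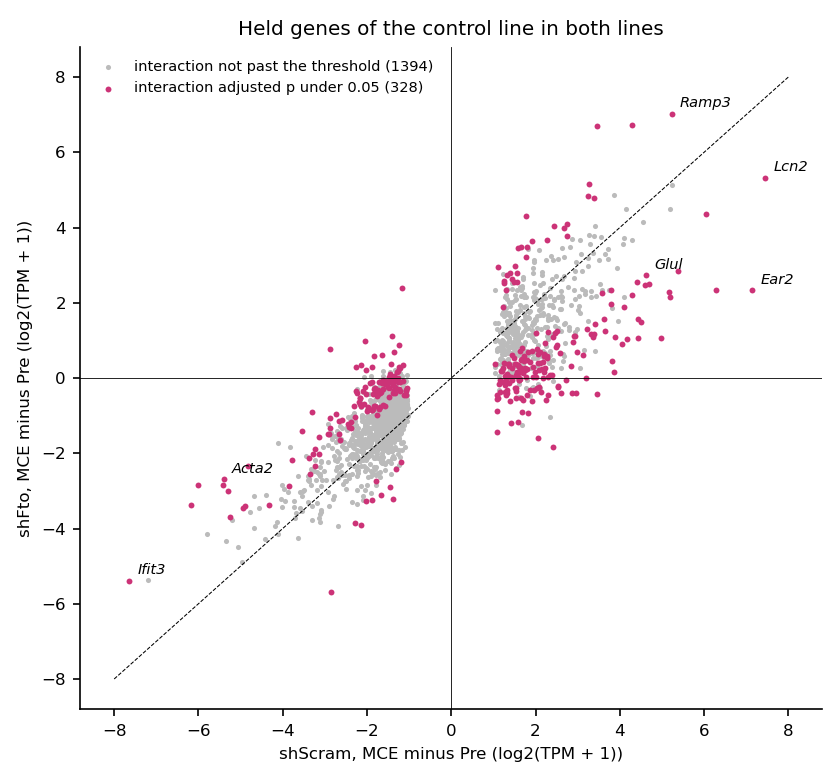
Each point is 1 of the 1722 held genes, with the stage difference on log2(TPM + 1) in shScram on the x axis and in shFto on the y axis, and the dashed line marks equal values. The 328 genes past the interaction threshold are coloured, and Ear2, Glul and Acta2 lie nearer to 0 in shFto while Ramp3 lies further from it.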

How the data were processed

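Gene levels were deposited by the authors as TPM, estimated with StringTie 2.1.4 after trimming (Trim Galore 0.6.5) and alignment by HISAT2 2.1.0 to the GRCm38 build, per the paper and the submitters' processing notes. The authors also used DESeq2 1.30.1, on counts that were not used here. TPM keeps no depth, so its precision is unknown beyond the 2 libraries a group. From 13033 to 14009 genes reached 1 TPM per library. The use of strand is not given in the sources used here.

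Libraries were grouped by title. The treatment entry of shScram Diff replicate 1 names the Fto knockdown, against its title, and its Fto level (73.5 TPM) is near that of replicate 2 (70.8 TPM) and above the shFto Diff libraries (7.47 and 7.05 TPM). Genes with a TPM of 1 or more in 2 of the 4 libraries were tested on log2(TPM + 1) with limma 3.58.1 in R 4.3.3 (a mean per group over 12 libraries, 6 residual degrees of freedom, eBayes with a trend). Tests were two-sided, and p-values were adjusted by the Benjamini-Hochberg method over 13946 genes. The fold change is understated for low genes on this scale. Tables were handled with Python 3.11.15, pandas 2.3.3 and numpy 2.4.6.

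Named genes are the 10 highest and 10 lowest held genes with a mean of 5 TPM or more, key genes of 32 lists, and up to 3 highest and 3 lowest held members of a list. The members and lists were chosen with earlier results of these data known. A few genes that the rule names are not reported here. GENCODE release M21 gave coordinates and GC content (13917 tested genes), and RefSeq the promoter windows, in which 12 motifs were searched. Of the 199 genes named, 59 share exonic sequence with another annotated gene, and their levels are uncertain to that extent. These include Cebpa, Cebpb, Cebpd, Srebf1, Glul, Dusp1, Top2a, Thbs1, Irf7, Irf9, Cxcl10, Fdps, Hmgcs1, Ucp2, Bnip3 and Jun, and Col4a1 with Col4a2. In all, 15 other settings, and 1 chosen after seeing the data, were fitted.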

Additional observations from a re-analysis of the deposited data

Results flagged for a closer look

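Of 199 genes named in the text, 62 had a stage difference that differed between the lines at an adjusted p under 0.05 in limma, by the interaction contrast (shFto minus shScram, log2(TPM + 1)). A negative value means a stage difference more negative, or less positive, in shFto cells. Over all 13946 genes tested 5.09% passed. Many named genes were chosen for a large difference in the control line, which favours a smaller difference in shFto cells. No direction or share is therefore read from these values. The count of such genes over the whole table changed with single shScram libraries, so each value depends on the preadipocyte pair.

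Among the genes that rose furthest in control cells the value was -2.12 for Lcn2, -4.80 for Ear2, -3.95 for Ear-ps2, -1.68 for Retnla, -2.54 for Agt, -3.04 for Wfdc3 and -2.86 for Wfdc12, whereas it was 1.80 for Ramp3. The acute phase and complement genes Orm1, Lbp and C3 gave -2.20, -3.01 and -2.22. Glucocorticoid targets gave -1.87 for Glul, -1.46 for Fkbp5, -2.74 for Tsc22d3, -2.74 for Dusp1 and -1.19 for Nfkbia, and 1.58 for Hsd11b1. For genes of the cyclic AMP list the values were 1.03 for Pde4d, 2.13 for Pde3b and 1.60 for Nr4a1.

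Adipocyte genes and their regulators gave -2.13 for Fabp4, -2.42 for Cd36, -1.82 for Cidec, -1.65 for Cfd, -2.75 for Pnpla2, -0.74 for Plin2, -1.16 for Pparg and -2.66 for Nr1h3. Among restraining and precursor genes the values were -1.48 for Hes1, 1.68 for Vdr, -1.96 for Dlk1, 1.01 for Pdgfra and 1.44 for Runx2. Lipid and sterol synthesis gave -1.38 for Thrsp, 1.34 for Scd1, 1.01 for Elovl6, 1.80 for Hmgcs1, 1.81 for Msmo1, 1.20 for Fdps, 1.55 for Idi1, 1.31 for Sqle and 1.53 for Sc5d.

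Interferon-stimulated genes gave 2.26 for Ifit3, 3.15 for Ifit1, 2.78 for Oasl2, 2.58 for Rtp4, 2.30 for Ifi44, 1.54 for Gbp3, 1.60 for Stat2 and 0.89 for Irf9, and the chemokine genes Cxcl10 and Cxcl5 gave 0.99 and 3.02. Contractile and matrix genes gave 2.71 for Acta2, 2.48 for Myl9, 2.25 for Tnc, 0.95 for Sparc and 3.64 for Sfrp2. The remaining values were 1.16 for Mcm6, 0.91 for Pcna, 0.69 for Ccnd2, 1.85 for Bnip3 and 1.30 for Slc7a11. With 2 libraries in each group no test for a single outlying library could be made.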

How the results depend on the processing

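Over all genes, 1090 were called higher and 1802 lower, 579 and 1143 held, and 710 passed the interaction contrast. With only the 4 libraries in the fit, 322 were called higher and 544 lower, and all of these held. A mean of 5 TPM or more left 1195 called lower and 716 held lower, from fewer genes tested. The GC correction left 1169 called lower and 1569 with an interaction, and together with leaving out preadipocyte replicate 1, an alternative chosen after seeing the data, 1081 and 2572. With only the 8 libraries of both stages 185 genes had an interaction. Leaving out 1 library gave 695 to 2497 called higher, 1439 to 2531 called lower and 253 to 8089 with an interaction. The held counts were recomputed only without an MCE library (579 to 584 higher, 1022 to 1249 lower), since holding needs both preadipocyte libraries. The cause of these changes was not tested.

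The other alternatives (pseudocount 0.1, no filter, quantile normalization, median-ratio scaling, TPM without mitochondrially encoded genes, robust spread) kept all 5 counts within 1.5 times. With the replicate block 1061 genes were called higher and 1796 lower. The numbers were not taken as pairing the samples, since replicate differences correlated at 0.144 between preadipocytes and the MCE stage and the labels give no shared culture or day. Of 199 named genes, 1 lost its call under the replicate block, Rps14 (limma adjusted p = 0.053), and 63 lost an adjusted p under 0.05 in the fit on 4 libraries.

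Among named genes, a change of sign was seen only in genes that were not called. With median-ratio scaling the log2 difference became 0.020 for Ccnd1, 0.039 for Cdkn1a, 0.015 for Cdkn1b, 0.11 for Ebf1, 0.16 for Insr, 0.15 for Klf9, 0.075 for Mcm6, 0.11 for Pde3b, 0.084 for Plin2 and 0.077 for Vim. Quantile normalization gave 0.079 for Ebf1, 0.12 for Insr, 0.088 for Klf9 and 0.25 for Pde3b. The GC correction gave 0.36 for Cdkn1b, 0.064 for Crem, 0.25 for Ebf1, 0.32 for Insr, 0.19 for Klf9, -0.18 for Mcm2, 0.22 for Mcm6, 0.056 for Mettl3 and 0.78 for Pde3b. With that correction and no preadipocyte replicate 1 the values were 0.34 for Cdkn1b, 0.016 for Crem, 0.47 for Ebf1, -0.084 for Fasn, 0.31 for Insr, 0.34 for Klf9, 0.20 for Mcm6, 0.021 for Mettl3, 0.62 for Pde3b and 0.17 for Vim. Fto was at -0.030 without mitochondrially encoded genes.

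Over the fits that left out 1 library, the log2 difference ranged from -0.43 to 0.065 for Ccnd1, -0.57 to 0.24 for Cdkn1a, -0.67 to 0.038 for Col3a1, -0.21 to 1.27 for Dcn, -0.36 to 0.20 for Ebf1, -0.26 to 1.38 for Fasn, -0.023 to 0.12 for Fto, -0.10 to 0.039 for Insr, -0.97 to 0.51 for Klf2, -0.19 to 0.093 for Klf9, -0.12 to 0.48 for Mcm2, -0.18 to 0.15 for Pde3b, -0.27 to 0.033 for Plin2, -0.92 to 0.011 for Scd2 and -0.94 to 0.38 for Srebf2. Depth limits genes near the filter, and with TPM alone no counting interval could be given.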
